A study of Mus musculus with 6 samples.

Results

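The 10 genes described here are the granzyme genes Gzma, Gzmb, Gzmc and Gzmk, the granule genes Prf1, Nkg7 and Srgn, and the protease inhibitor genes Serpina3g, Serpinb9 and Serpinb6b. They were taken by gene symbol, and all 10 had a row among the 21017 genes of the count table. The RNA came from ILC2s, group 2 innate lymphoid cells, which are lymphocytes of mucosal tissue, without T- or B-cell receptors, that secrete type 2 cytokines. There were 3 libraries from IL-10-producing and 3 from IL-10-negative ILC2s. Both populations came from lungs of IL-10GFP mice, which report Il10 by green fluorescence, on the C57BL/6J background at 8 weeks of age. All mice had been given recombinant mouse IL-33 through the nose 3 times, 0.5 µg per dose. Sorted ILC2s were then held in culture for 48 h in 10 ng/mL of IL-2, of IL-7 and of IL-4, and sorted again on the IL-10 reporter. The labels call the cells freshly sorted, although the protocol includes this culture. There was no group without IL-33 or without the culture cytokines, and the labels do not tie the libraries of a group to different animals or cultures. The p-values therefore reflect the spread between these libraries alone, which may be technical.

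Granzymes are serine proteases that cytotoxic lymphocytes store in granules and release towards a target cell, where perforin lets them enter the cytosol. Inside the granule they are bound to the proteoglycan serglycin, and the cathepsin C peptidase removes the propeptide that keeps them inactive. Cells that make granzymes also hold serpins, suicide substrates that trap a protease that has leaked into the cytosol or nucleus. ILC2s are best known for secreted cytokines rather than for killing. The comparison asks how transcripts for the proteases and for their inhibitors differed between ILC2s that made IL-10 and ILC2s that did not.

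Sequences are shown for the promoters of the granzyme genes with the most counts and of the inhibitor genes that changed most among the 3 serpins, since these carry the contrast described below. Each is the stretch of 250 bases before the RefSeq transcription start (GRCm38.p6), read in the direction of the gene. Gzma lies on the minus strand (chr13:113100982-113101231), as does Gzmb (chr14:56262335-56262584), and Serpina3g (chr12:104235897-104236146) and Serpinb9 (chr13:33004291-33004540) lie on the plus strand. Capitals mark matches on either strand to any of 7 short motifs. These were the Runx motif TGTGGT, the AP-1 motif TGANTCA, the STAT motif TTCNNNGAA, the T-box motif AGGTGTGA, the GATA motif AGATAA, the IRF motif (GAAA, any 2 bases, GAAA) and the NF-kB motif (GGG, any 2 bases, TTTCC). The marked matches do not overlap.
Gzma: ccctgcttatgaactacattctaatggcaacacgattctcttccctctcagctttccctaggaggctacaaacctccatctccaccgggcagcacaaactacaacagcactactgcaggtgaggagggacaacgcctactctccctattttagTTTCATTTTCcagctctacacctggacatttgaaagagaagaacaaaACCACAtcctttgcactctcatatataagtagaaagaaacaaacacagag
Gzmb: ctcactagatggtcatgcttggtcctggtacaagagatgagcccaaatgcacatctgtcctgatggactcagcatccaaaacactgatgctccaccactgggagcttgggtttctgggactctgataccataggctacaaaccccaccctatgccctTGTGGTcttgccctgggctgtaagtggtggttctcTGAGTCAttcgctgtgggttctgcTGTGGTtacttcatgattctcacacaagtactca
Serpina3g: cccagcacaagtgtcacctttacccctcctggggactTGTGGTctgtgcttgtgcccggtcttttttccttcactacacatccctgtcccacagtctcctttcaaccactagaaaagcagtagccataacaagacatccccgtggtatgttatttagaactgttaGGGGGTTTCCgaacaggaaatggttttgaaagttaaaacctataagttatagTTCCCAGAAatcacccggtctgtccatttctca
Serpinb9: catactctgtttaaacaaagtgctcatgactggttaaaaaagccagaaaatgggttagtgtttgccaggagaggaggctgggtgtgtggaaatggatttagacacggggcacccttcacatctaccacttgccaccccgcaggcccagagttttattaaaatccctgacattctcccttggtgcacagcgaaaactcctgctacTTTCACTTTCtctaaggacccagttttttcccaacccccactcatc

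The Gzma window held an IRF match 97 to 88 bases and a Runx match 50 to 45 bases before the start. The Gzmb window held the Runx letters at 93 to 88 and at 34 to 29 bases, and an AP-1 match between them at 58 to 52 bases. In the Serpina3g window a Runx match lay at 213 to 208, an NF-kB match at 85 to 76 and a STAT match at 33 to 25 bases. The Serpinb9 window held an IRF match at 46 to 37 bases, inside the annotated span of the gene, whose start in the count table lies farther upstream. All 10 genes had a window, 11 in all because Srgn had 2, and the Runx letters were in 7 of these 11 against 14.05% of all 32851 RefSeq windows. The IRF letters were in 3 of the 11 against 2.98% of all windows, the STAT letters in 2 against 7.02%, and AP-1, NF-kB and T-box in 1 each against 6.75%, 1.41% and 1.12%. The GATA letters were in 0 of the 11 and in 9.99% of all. The motifs were picked after the windows had been read, and a match is a description of letters, not a bound site.

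Libraries held 47012941 to 69511433 estimated counts. Levels are CPM, counts relative to library size after scaling with TMM factors, and a positive log2 fold change means more in IL-10-producing cells. Each adjusted p is that of the quasi-likelihood F test of edgeR over 16654 genes with Benjamini-Hochberg adjustment, and "rose" and "fell" mean an adjusted p under 0.05. The sort could be checked against markers. The 15 ILC2 markers summed to 16638 to 16786 CPM in IL-10-producing and 15922 to 16065 CPM in IL-10-negative libraries, with none at 0. Of these markers 4 rose and 8 fell, with a median log2 fold change of -0.19, where 17.1% of all tested genes rose and 18.6% fell. These shares also stand beside the counts that follow. The higher sum followed Il2ra (5835 against 4206 CPM), while Gata3 (708 against 832 CPM) and Il1rl1 (3299 against 4069 CPM) fell. The 15 T-cell markers all fell, and their sum was 92.9 to 96.5 CPM in IL-10-producing and 185 to 190.4 CPM in IL-10-negative libraries. Trbc1 and Trbc2 made up most of the sum in IL-10-producing libraries and fell by 0.17 and 0.28 on the log2 scale, against a median of -2.67 over the list. Of 16 markers of NK cells and ILC1s, 14 had a row and 10 were tested, of which 8 fell and 0 rose. The 14 summed to 1.25 to 1.497 CPM in IL-10-producing and 11.5 to 13.0 CPM in IL-10-negative libraries. Of these markers Ifng, Klra4, Klra7, Klra9, Klre1 and Ncr1 were at 0 in all 3 IL-10-producing libraries, and none was at 0 over the IL-10-negative libraries. All 12 mast cell and basophil markers fell (summed level 14.6 to 16.4 against 74.0 to 78.1 CPM). Of 11 neutrophil and eosinophil markers (3.25 to 3.85 against 49.9 to 54.0 CPM) 9 were tested and 7 fell. Macrophage and dendritic cell markers (8 with a row, 1 higher and 3 lower of 7 tested) stood at 6.44 to 6.99 against 6.98 to 8.38 CPM. B-cell markers (2 higher, 4 lower of 7) stood at 43.6 to 45.6 against 37.0 to 38.1 CPM. The filter kept 8 of the NK and ILC1 markers, 4 of the mast cell and basophil, 4 of the neutrophil and eosinophil and 2 of the T-cell markers only through the IL-10-negative libraries, so these counts of falls are descriptions. In RNA from a sorted population, fewer cells of a type and less RNA per cell cannot be told apart.

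The granzyme genes with substantial counts rose in IL-10-producing cells and the serpin genes among the 10 fell. Of the 10 genes, 8 passed the filter on low counts; 4 rose (Gzma, Gzmb, Prf1 and Srgn) and 4 fell (Nkg7, Serpina3g, Serpinb9 and Serpinb6b), beside 35.7% of all tested genes that changed, 17.1% that rose (2840 genes) and 18.6% that fell (3103 genes). With library size only, 2206 genes rose and 3794 fell. In all 8 the groups did not overlap, which was so for 45.2% of tested genes. A change of at least 2-fold was called for 4 of them (Gzma, Nkg7, Serpina3g and Serpinb9), and for 3.66% of tested genes. Gzmc and Gzmk were not tested because of low counts. With no filter 9 of the 10 genes had an adjusted p under 0.05, the added one being Gzmk. The deposited counts held no gene with a total under 10, and all 11 counts of Gzmk were in IL-10-negative libraries. Gzmk thus has a row only through the group where it is high, and its call supports nothing. Nkg7 passed the filter only through its counts in IL-10-negative libraries, where it was high, so it had to differ and its call supports nothing in these counts.

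**Figure D1:**
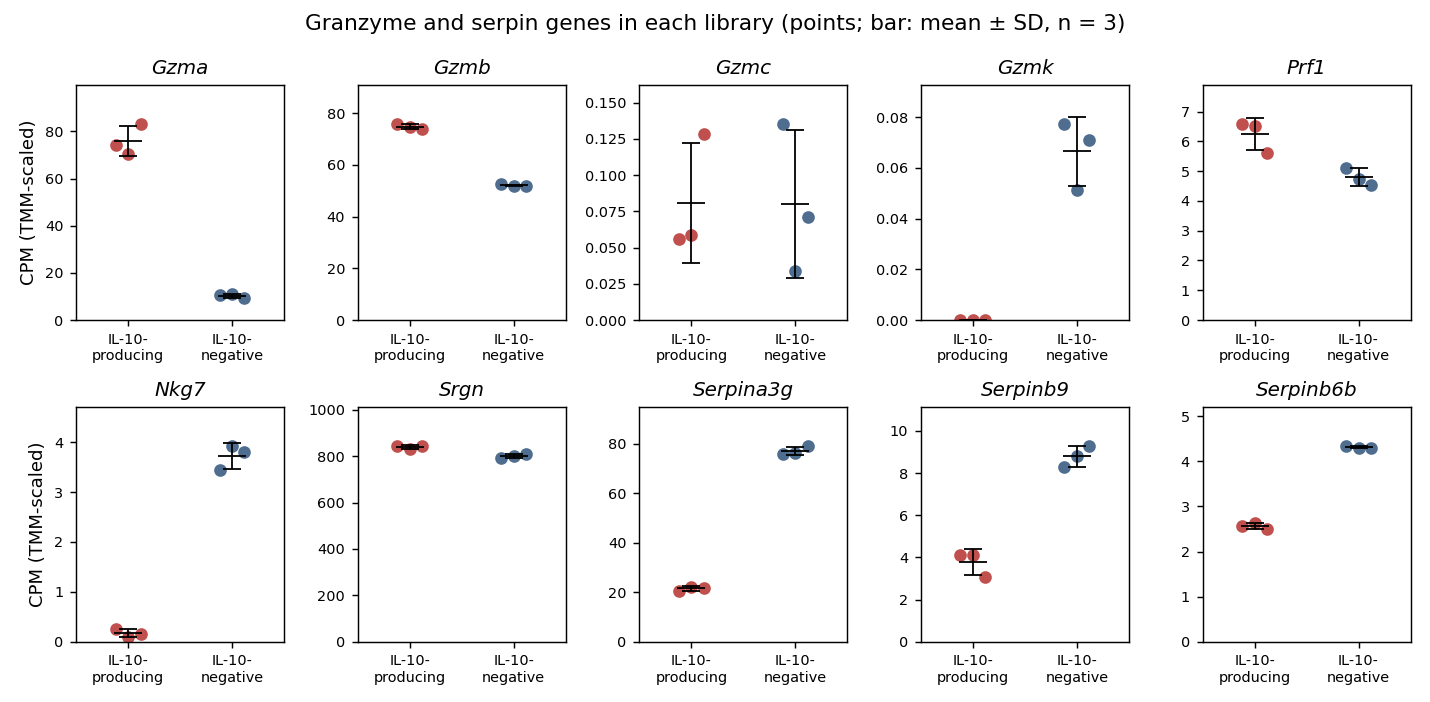
Level of each of the 10 genes (y axis, TMM-scaled CPM, from 0, own scale per panel) in the 3 IL-10-producing (left, red) and 3 IL-10-negative (right, blue) libraries, with mean and SD. Groups are apart for Gzma, Gzmb, Prf1 and Srgn, which are higher on the left, and for Nkg7 and the 3 serpins, which are lower there, while Gzmc overlaps and Gzmk has no count on the left.

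Gzma encodes granzyme A, a trypsin-like protease that cuts after basic residues (ENSMUSG00000023132.8, mm10 chromosome 13, 113093825 to 113100981, minus strand). It stood at 74.3, 70.4 and 83.1 CPM in IL-10-producing libraries and at 10.6, 11.01 and 9.29 CPM in IL-10-negative libraries. All 3 IL-10-producing libraries lay far above the IL-10-negative ones. The difference was 7.36-fold (log2 fold change 2.88, 95% interval 2.76 to 3.00, adjusted p = 7.26e-22). Its coefficient of variation was 8.57% in IL-10-producing and 8.67% in IL-10-negative libraries. Granzyme A is also a product of NK cells and CD8 T cells, and markers of those cells differed between the same libraries. Cd8a stood at 0.0558, 0.0584 and 0.0642 CPM in IL-10-producing libraries and at 14.9, 15.2 and 15.7 CPM in IL-10-negative libraries. Ncr1, which encodes the NK-cell receptor NKp46, had 0 counts in the IL-10-producing and 34 in the IL-10-negative libraries. Cd160, of the same NK and ILC1 list, did not pass the test (0.846 against 0.861 CPM, log2 fold change -0.04, adjusted p = 0.925). Their part in the Gzma difference was not tested.

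Gzmb encodes granzyme B, which cuts after aspartate and activates caspases (ENSMUSG00000015437.5, chromosome 14, 56258838 to 56262260, minus strand). It reached 75.7, 74.7 and 74.0 CPM in IL-10-producing libraries, against 52.4, 51.9 and 51.8 CPM in IL-10-negative libraries. The values within a group were close together, and the groups were apart. The rise was 1.44-fold (log2 fold change 0.52, 95% interval 0.46 to 0.59, adjusted p = 6.37e-13), so Gzma and Gzmb were near the same CPM in IL-10-producing cells but far apart in IL-10-negative cells.

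Gzmc and Gzmk were barely counted. Gzmc encodes granzyme C, known in the mouse from activated cytotoxic lymphocytes (ENSMUSG00000079186.3, chromosome 14, 56231441 to 56234656, minus strand), and had 3, 4 and 6 counts in IL-10-producing and 7, 2 and 4 in IL-10-negative libraries. The pooled ratio was 0.986 with an exact 95% counting interval of 0.421 to 2.31, so these counts do not tell apart ratios within that range. Gzmk encodes granzyme K, another trypsin-like granzyme (ENSMUSG00000042385.14, chromosome 13, 113171608 to 113225908, minus strand). It had 0 counts in all 3 IL-10-producing libraries and 4, 3 and 4 counts in the IL-10-negative libraries. Against a limit of 3 counts over the IL-10-producing group (0.0177 CPM), the 11 counts taken as exact put Gzmk at least 3.72-fold lower there. With the counting error of both groups, the exact 95% bound was 2.55-fold lower. Its gene span overlaps Esm1 on the other strand with no shared exon bases. These intervals and limits describe counting error alone, because the reads carry no molecular identifiers and are not independent molecules.

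Of the 6 other granzyme genes, 2 had a row. Gzmm, which encodes granzyme M, stood at 0.409, 0.423 and 0.364 CPM in IL-10-producing and at 0.290, 0.580 and 0.657 CPM in IL-10-negative libraries. The groups overlapped and Gzmm did not pass the test (log2 fold change -0.35, adjusted p = 0.481). Gzme had 1 count in the IL-10-producing and 14 in the IL-10-negative libraries, a pooled ratio of 0.0704 with a counting interval of 0.00167 to 0.463. The granzyme transcripts of these ILC2s were thus nearly all Gzma and Gzmb.

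Prf1 encodes perforin, the pore-forming protein through which granzymes reach the target cytosol (ENSMUSG00000037202.6, chromosome 10, 61297833 to 61304680, plus strand). It stood at 6.58, 6.52 and 5.62 CPM in IL-10-producing libraries and at 5.12, 4.73 and 4.53 CPM in IL-10-negative libraries. The groups did not overlap, though IL-10-producing replicate 3 lay near the highest IL-10-negative library. The rise was 1.31-fold (log2 fold change 0.39, 95% interval 0.18 to 0.59, adjusted p = 0.0031), and it did not pass a test against a change of 1.2-fold (adjusted p = 0.302).

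Srgn encodes serglycin, the proteoglycan core on which granule proteases are packed (ENSMUSG00000020077.14, chromosome 10, 62493833 to 62527451, minus strand). It was the most abundant of the 10 genes, at 844, 829 and 843 CPM in IL-10-producing libraries and 792, 802 and 807 CPM in IL-10-negative libraries. The groups were apart by a small margin (1.05-fold, log2 fold change 0.07, 95% interval 0.03 to 0.10, adjusted p = 0.00269). With scaling by library size only the call was lost (log2 fold change 0.04, adjusted p = 0.09).

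Nkg7 encodes a granule membrane protein needed for degranulation of cytotoxic cells (ENSMUSG00000004612.9, chromosome 7, 43437073 to 43438249, plus strand). It had 14, 7 and 7 counts in IL-10-producing libraries and 178, 230 and 214 counts in IL-10-negative libraries. Every IL-10-producing library was thus far below every IL-10-negative one. The log2 fold change was -4.47 (95% interval -4.97 to -3.97), given as a description because the filter kept the gene through the IL-10-negative libraries, and the pooled ratio of 22.5 in favour of IL-10-negative cells had a counting interval of 15.4 to 34.2. Taken from the authors' normalized table, as log2(value + 1), which compresses low genes, the difference was -1.76. Nkg7 was lower in IL-10-producing libraries, as were most markers of T cells, NK cells and ILC1s, mast cells and basophils, and neutrophils and eosinophils. B-cell markers were divided (2 higher, 4 lower of 7) and summed to 43.6 to 45.6 against 37.0 to 38.1 CPM. T-cell markers summed to 92.9 to 96.5 against 185 to 190.4 CPM in the same libraries, and NK and ILC1 markers to 1.25 to 1.497 against 11.5 to 13.0 CPM; their part in the Nkg7 difference was not tested.

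**Figure D2:**
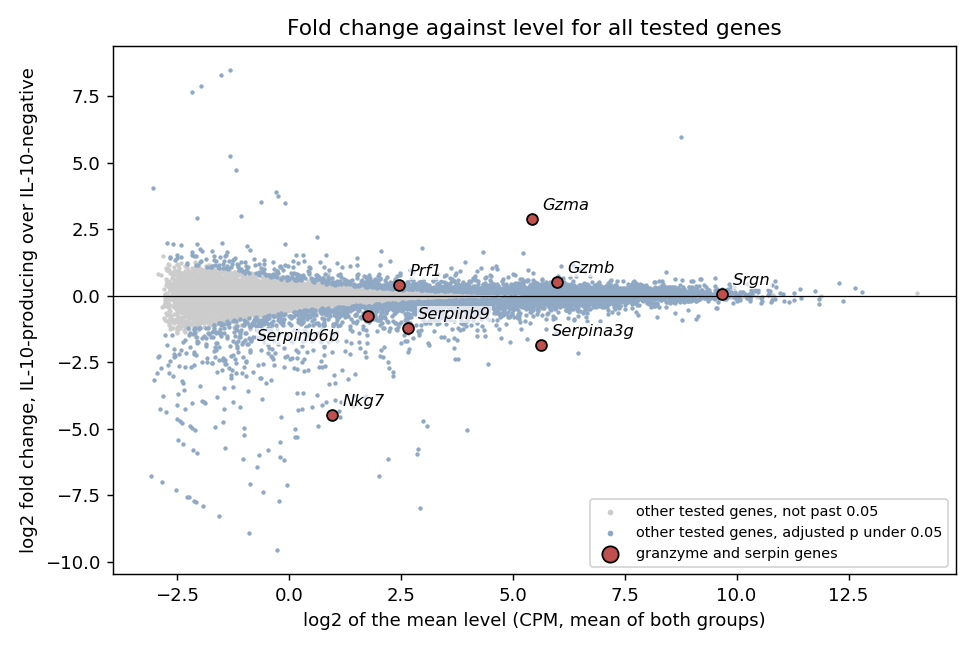
Fold change (y axis, log2, IL-10-producing over IL-10-negative) against mean level (x axis, log2 of CPM) for all 16654 tested genes, with the 8 tested granzyme and serpin genes labelled. Gzma lies at 2.88, Serpina3g at -1.84, Srgn at 0.07 and Nkg7, of low level, at -4.47.

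Serpina3g encodes a serpin that in the mouse inhibits lysosomal cathepsins in the cytosol of lymphocytes (ENSMUSG00000041481.16, chromosome 12, 104236245 to 104241939, plus strand). It stood at 20.6, 22.1 and 21.9 CPM in IL-10-producing libraries, against 76.0, 76.3 and 79.2 CPM in IL-10-negative libraries. The 2 groups were widely apart, with little spread inside either. The log2 fold change was -1.84 (95% interval -1.92 to -1.76, adjusted p = 8.07e-22), a level 3.58-fold higher in IL-10-negative cells. Of its 50-base stretches in GENCODE M21 transcripts, 15.5% also occurred in another gene, mostly Serpina3h, Serpina3i and Serpina3f, so its estimated count is less certain than those of the granzymes. For Gzma, Gzmb, Gzmk, Prf1, Nkg7 and Srgn that share was 0%, and for Gzmc 4.14%.

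Serpinb9 encodes the intracellular inhibitor of granzyme B (ENSMUSG00000045827.10, chromosome 13, 33003250 to 33017957, plus strand). It stood at 4.13, 4.13 and 3.08 CPM in IL-10-producing libraries and at 8.30, 8.82 and 9.29 CPM in IL-10-negative libraries. IL-10-producing replicate 3 was the lowest of all 6. The log2 fold change was -1.21 (95% interval -1.42 to -0.99, adjusted p = 7.49e-10). Serpinb6b encodes a serpin that in the mouse inhibits granzyme A (ENSMUSG00000042842.11, chromosome 13, 32965209 to 32979067, plus strand), and stood at 2.57, 2.63 and 2.502 CPM in IL-10-producing and 4.34, 4.30 and 4.30 CPM in IL-10-negative libraries. The groups were apart by much more than their spread, with a log2 fold change of -0.75 (95% interval -0.99 to -0.50, adjusted p = 1.51e-05). Of their 50-base stretches, 0.378% for Serpinb9 and 2.92% for Serpinb6b occurred in another gene. Markers of T cells and of NK cells were lower in the same libraries, by the sums given above, and both cell types express serpins; their part in the 3 falls was not tested.

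**Figure D3:**
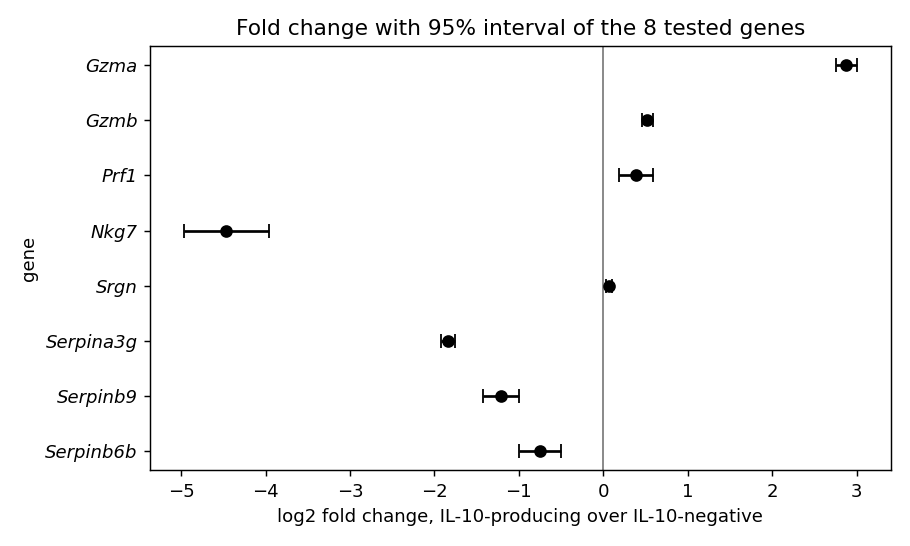
Log2 fold change (x axis, IL-10-producing over IL-10-negative) with its 95% interval for the 8 tested genes (y axis). Gzma, Gzmb, Prf1 and Srgn lie right of 0, Nkg7, Serpina3g, Serpinb9 and Serpinb6b left of it, and no interval reaches 0.

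Set per kb of the longest GENCODE M21 transcript, the levels could be ordered within a population. In IL-10-producing cells the order was Srgn (486 CPM per kb), Gzma (76.3), Gzmb (52.1), Serpina3g (11.9), Prf1 (2.52), Serpinb6b (1.17), Serpinb9 (1.09) and Nkg7 (0.194). Serpinb6b and Serpinb9 overlapped there and could not be placed in order. In IL-10-negative cells it was Srgn (463 CPM per kb), Serpina3g (42.8), Gzmb (36.2), Gzma (10.3), Nkg7 (4.22), Serpinb9 (2.54), Serpinb6b (1.97) and Prf1 (1.94), where the values of Serpinb6b and Prf1 overlapped. Serpina3g was therefore above both granzymes in IL-10-negative cells and below both in IL-10-producing cells. Averaged over the groups, Gzma lay at the 89.7 percentile of tested genes by level per kb, with Gzmb just above it, Serpina3g at 83.5, Srgn at 99.2, and Prf1, Serpinb9 and Serpinb6b between 34.6 and 38.5.

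Each protease was also set against its own inhibitor within a library, as a ratio of CPM per kb. The ratio of Gzmb to Serpinb9 was 44.4, 43.7 and 58.1 in IL-10-producing libraries and 15.3, 14.2 and 13.5 in IL-10-negative libraries. The ratio of Gzma to Serpinb6b was 63.8, 59.0 and 73.1 in IL-10-producing libraries and 5.36, 5.64 and 4.76 in IL-10-negative libraries. Both ratios were higher in every IL-10-producing library than in any IL-10-negative one, by 3.38-fold and 12.4-fold. In a two-sided exact permutation test over libraries each of the 2 ratios had p = 0.1, the smallest that 3 against 3 libraries can give, and 0.1 after adjustment over both. The ratios restate the gene differences above and concern transcripts, not protein or activity.

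**Figure D4:**
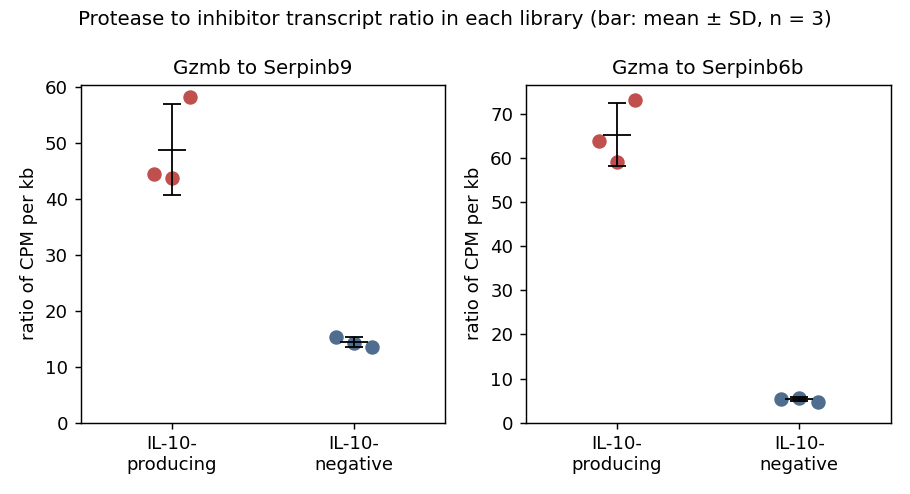
Ratio of protease to inhibitor transcript (y axis, CPM per kb over CPM per kb) in the 3 IL-10-producing (left) and 3 IL-10-negative (right) libraries, with mean and SD. Gzmb to Serpinb9 is 43.7 to 58.1 on the left and 13.5 to 15.3 on the right, and Gzma to Serpinb6b is 59.0 to 73.1 and 4.76 to 5.64.

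Most serpin genes outside the 10 had no row in the count table or low levels. Of 22 further clade B serpins, the intracellular branch, 3 had a row and 2 were tested. Serpinb1a, an inhibitor of neutrophil elastase and cathepsin G, fell (5.00 ± 0.501 against 10.6 ± 0.713 CPM, SD, n = 3; log2 fold change -1.08, adjusted p = 3.38e-10 in edgeR's test). Neutrophil and eosinophil markers summed to 3.25 to 3.85 against 49.9 to 54.0 CPM in the same libraries, and their part was not tested. Serpinb6a, a broad intracellular serpin and by far the most abundant of the family here, stood at 151 ± 0.817 against 142 ± 3.38 CPM and rose by 0.09 on the log2 scale (adjusted p = 0.00528), a call lost with library size only (0.0685). Of 10 further clade A3 serpins, Serpina3f alone had a row, with 0.290 ± 0.0998 against 1.87 ± 0.153 CPM (log2 fold change -2.72). Serpina3f shares sequence with Serpina3g and passed the filter only through the IL-10-negative libraries, so its values are a description. Among 14 serpins of other clades 5 were tested, 0 rose and 2 fell, where 17.1% of all tested genes rose and 18.6% fell. Serpine2, a protease inhibitor of the cell surface and matrix, was the most abundant (4.58 ± 0.447 against 5.65 ± 0.608 CPM, adjusted p = 0.036). The Serpine2 call was lost in 5 of the alternatives beside a test against 1.2-fold, with adjusted p up to 0.207 without IL-10-negative replicate 1.

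Genes that mature and sort granule proteases went both ways. Of 12, 6 rose and 5 fell, with a median log2 fold change of 0.09, where 17.1% of all tested genes rose, 18.6% fell and the median was -0.0038. Ctsh, cathepsin H, rose (50.8 ± 0.711 against 37.7 ± 0.837 CPM, log2 fold change 0.43), and so did M6pr, the cation-dependent receptor that carries mannose 6-phosphate tagged enzymes to lysosomes (497 ± 4.69 against 393 ± 3.33 CPM, 0.34). Igf2r, the cation-independent receptor of the same kind, fell (57.8 ± 0.958 against 76.1 ± 1.198 CPM, -0.40). Ctsw, cathepsin W, known from NK and CD8 T cells, fell (7.87 ± 0.424 against 13.5 ± 0.183 CPM, -0.78). T-cell markers summed to 92.9 to 96.5 against 185 to 190.4 CPM in the same libraries. NK and ILC1 markers summed to 1.25 to 1.497 against 11.5 to 13.0 CPM, and the part of these cells was not tested. Ctsd, cathepsin D and the most abundant of the list, fell slightly (605 ± 14.4 against 641 ± 4.40 CPM, -0.08). Ctsc, the cathepsin C that activates granzymes, was picked after its values were seen, and rose 1.17-fold (82.8 ± 0.740 against 70.9 ± 0.175 CPM, adjusted p = 4.94e-07).

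Genes of granule release were divided as well. Of 14 tested of 16, 4 rose and 4 fell, beside 17.1% and 18.6% of all tested genes, with a median of 0.01. Lyst, the lysosomal trafficking regulator lost in Chediak-Higashi syndrome, fell most (31.6 ± 1.01 against 75.4 ± 3.84 CPM, log2 fold change -1.25, adjusted p = 3.2e-18). Sytl2, a Rab27 effector that docks granules, rose (143 ± 2.95 against 101 ± 1.80 CPM, 0.50), as did Stx11, a syntaxin of cytotoxic granule fusion (130 ± 0.858 against 98.8 ± 3.55 CPM, 0.39), and Sytl3, a related Rab27 effector (0.19). Unc13d, Vamp8 and Ap3d1, of the priming, fusion and sorting machinery and named after their values were seen, fell by 0.13, 0.13 and 0.08 on the log2 scale. Coro1a, an actin regulator and the most abundant of the list, rose by 0.05 on the log2 scale (adjusted p = 0.0133), which was lost with library size only (0.322).

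The enzymes that build and sulfate the glycosaminoglycan chains of proteoglycans such as serglycin went both ways. All 19 were tested, 4 rose and 6 fell, beside 17.1% and 18.6% of all tested genes, and the median was -0.09. Ndst1, an N-sulfotransferase of heparan sulfate, rose (136 ± 0.484 against 99.4 ± 2.09 CPM, log2 fold change 0.45), and Ndst2, the isoform that mast cells use for heparin, fell (22.1 ± 1.32 against 26.8 ± 1.23 CPM, -0.28). Mast cell and basophil markers summed to 14.6 to 16.4 against 74.0 to 78.1 CPM in the same libraries, and their part was not tested. The widest difference was that of the low gene Chst15, a chondroitin sulfotransferase named after its values were seen, which fell (1.03 ± 0.154 against 2.89 ± 0.500 CPM, -1.49). Ext2, a heparan sulfate polymerase subunit, rose by 0.14, Chpf2, a chondroitin polymerizing factor, fell by 0.16, and Chsy1, a chondroitin synthase and the most abundant of the list, rose by 0.07 on the log2 scale, a call lost when libraries were scaled by size alone (adjusted p = 0.189) and without IL-10-negative replicate 1 (0.135), IL-10-negative replicate 2 (0.0529) or IL-10-producing replicate 2 (0.0759).

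Genes for known granzyme substrates were counted too. Of 19 tested of 20, 11 rose and 2 fell (median 0.11), beside 17.1% and 18.6% of all tested genes. Hmgb2, Lmnb1 and Set, nuclear proteins cut by granzyme A or by caspases, rose by 0.33, 0.31 and 0.17 on the log2 scale, to 399 ± 7.63, 395 ± 6.19 and 393 ± 3.77 CPM in IL-10-producing cells, against 317 ± 0.885, 318 ± 2.76 and 349 ± 3.38 CPM in IL-10-negative cells. The falls, named after their values were seen, were Trex1, an exonuclease (8.63 ± 0.472 against 11.6 ± 0.744 CPM, -0.42), and Hax1, a mitochondrial protein (-0.13). The substrates have roles apart from cell death, Hmgb2 and Lmnb1 in chromatin and the nuclear lamina of dividing cells.

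**Figure D5:**
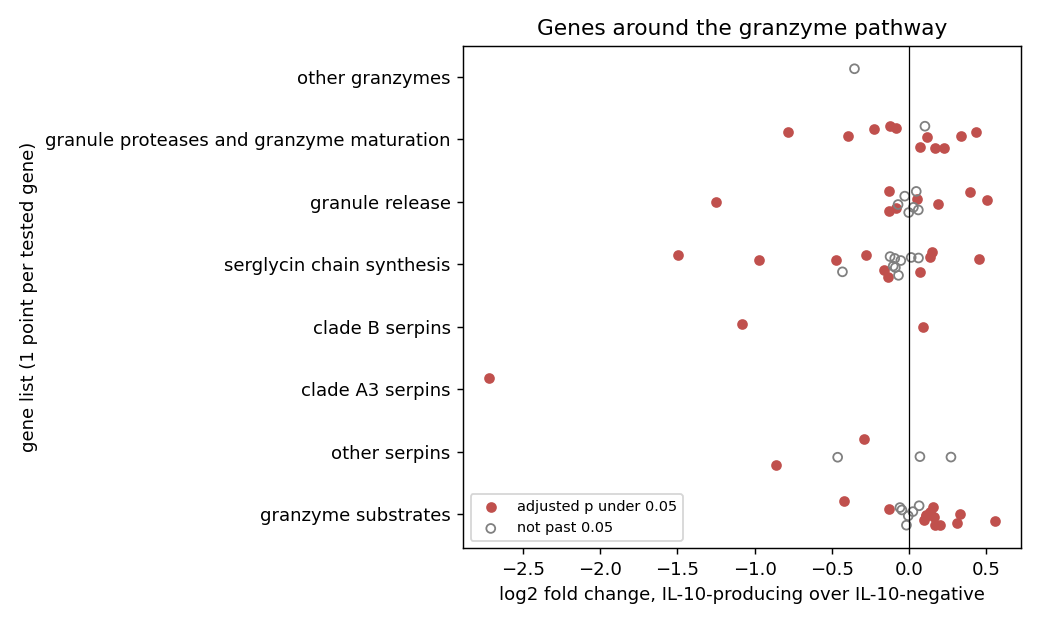
Log2 fold change (x axis, IL-10-producing over IL-10-negative) of each tested gene of 8 lists around the granzyme pathway (y axis, points spread vertically for legibility). Filled points have an adjusted p under 0.05 and open points do not, and Serpina3f, the single point of its list, lies farthest out at -2.72.

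The neighbours of the 10 genes on their chromosomes did not all move with them. Within 500 kb of Gzmb, 20 other genes were tested, of which 5 rose and 8 fell, where 17.1% of all tested genes rose and 18.6% fell. The falls included Cma1, Ctsg, Mcpt1, Mcpt2, Mcpt4 and Mcpt8, the mast cell, basophil and neutrophil proteases of the same gene cluster, of which Mcpt4 passed the filter only through the IL-10-negative libraries. Within 500 kb of Gzma, 1 of 7 tested genes rose and 1 fell, and Gzmk had too few counts to test. Around Serpinb9, 3 genes were tested, of which Serpinb1a and Serpinb6b fell and Wrnip1 did not pass. Around Serpina3g, Serpina3f was lower, as above, and the other 2 tested genes did not pass.

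The genes with profiles most like those of Gzma and Serpina3g were found by Euclidean distance over the 6 libraries, on log2(CPM + 0.5) centred per gene, among 10376 others that reached 5 CPM in either group. For Gzma they were the cadherin gene Cdh17 (distance 1.47), the cytokine gene Il24 (1.55) and the small GTPase gene Gem (1.56). None came close, because their log2 fold changes of 1.79, 1.60 and 1.63 were smaller than the 2.88 of Gzma. Serpina3g had close matches in the phosphodiesterase gene Pde7b (0.0814; 19.9 ± 0.605 against 72.8 ± 0.813 CPM), the transcription factor gene Bach2 (0.171; 1.12 ± 0.102 against 5.45 ± 0.312 CPM) and the lymphotoxin gene Ltb (0.211; 14.1 ± 0.542 against 47.6 ± 0.973 CPM). The log2 fold changes of Pde7b, Bach2 and Ltb were -1.87, -2.28 and -1.75, against -1.84 for Serpina3g. The added 0.5 CPM narrows the difference of a low gene such as Bach2, so its distance understates how far the fold changes lie apart. The distance rests on the same 6 libraries as the fold changes and is a description.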

How the data were processed

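RNA sequencing covered 6 libraries in 2 groups of 3, taken from the labels. The submitters' processing notes name mm10 as the build and list STAR 2.5.3a, Partek and bcl2fastq 2.17.1.14; the annotation release, strand setting and read length were not given in the sources used here. The authors deposited estimated counts per gene, not scaled between libraries, of which 50.4% were not whole and in which no gene totalled under 10. They also deposited normalized signal values for 13824 genes, which equalled the estimated count plus 1 times one factor per library (100% within 1%), and which served as an alternative. Of the identifiers, 19917 matched GENCODE M21, all with equal positions after 1 was subtracted from the listed stop.

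Counts were rounded and tested with edgeR 4.0.16 (R 4.3.3): TMM factors, filterByExpr (minimum count 10, total 15), group as the only term, threshold 0.05. The standard error is the absolute log2 fold change over the square root of F. The median squared difference between replicates was 2.39 to 2.92 times the Poisson expectation. No pair stood far from the others, and all 6 libraries were used. The test was also run on simulated data with 200 changed genes. Alternatives used DESeq2 1.42.0 (size factors or its own test), limma 3.58.1 (voom, or the normalized values), library size only, other filters, a 1.2-fold test, a replicate block, and fits without each library in turn. The 10 genes, the 8 pathway lists and the 7 marker lists were chosen with earlier results of these data known. Named list genes are the 4 with the smallest p at 5 CPM or more and the most abundant one. Some items that this rule or the counts include are not reported here. Sequences are from RefSeq; 4 of the 10 promoters are printed.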

Additional observations from a re-analysis of the deposited data

How the results depend on the processing

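Direction held for all 8 tested genes in all 15 alternative fits, and the call held in 117 of 120 cases. The exceptions were Srgn with library size only and with the 1.2-fold test, and Prf1 with the 1.2-fold test. Nkg7 supplied 15 of the 120 cases. Both Nkg7 and the clade A3 gene Serpina3f passed the filter only through the IL-10-negative libraries. Their calls, here and in the counts that follow, are therefore descriptions and no sign of robustness. Log2 fold changes ran from 2.74 to 2.93 for Gzma, 0.49 to 0.54 for Gzmb, -1.87 to -1.78 for Serpina3g, -1.28 to -0.996 for Serpinb9 and -0.78 to -0.54 for Serpinb6b. Against a change of 1.2-fold, which asks for more than a difference, 1317 genes passed (407 higher, 910 lower) in place of 5943, as did 2 of the 4 genes here that rose (Gzma and Gzmb), all 4 that fell, and 15 in place of 47 pathway genes. These were 4 of 11 in granzyme maturation, 3 of 8 in granule release, 2 of 10 in serglycin chain synthesis, 1 of 2 in clade B serpins, the 1 clade A3 serpin, 1 of 2 in other serpins and 3 of 13 in granzyme substrates. Clade B serpins also had 1 call with library size only, and 1 on the authors' normalized values, among which Serpinb1a had no row. Other serpins had 1 with DESeq2 and with limma-voom, and 1 to 2 when single libraries were left out (1 without IL-10-negative replicate 1 or IL-10-producing replicate 1). With library size only 2206 genes rose and 3794 fell, where TMM gave 2840 and 3103. Apart from that missing row, the cause of these changes was not tested beyond the tests' own construction.

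The labels number the replicates 1 to 3 in each group. The deviations of same-numbered libraries from their group means correlated at 0.0103, -0.0073 and -0.0157 over 13132 genes. No shared deviation was thus seen, but with 3 libraries per group this cannot decide whether the numbers pair the samples. With the replicate number as a block 5817 genes changed and all 8 calls were kept, that of Nkg7 being a description only. With no filter 9 of the 10 genes were called (4 higher, 5 lower), adding Gzmk (adjusted p = 0.024 in edgeR's test). The Gzmk call rests on 11 counts, all in IL-10-negative libraries, through which alone the gene has a row, so it supports nothing. DESeq2 gave Gzmk no adjusted p. Low counts limit Gzmc, Gzmk, Gzme and Gzmm.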
